A study of Homo sapiens with 20 samples.

Results

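Peaks were sought at NDRG1, its neighbour CCN4, and the hypoxic stress genes DDIT4, CA9, AK4, BNIP3 and P4HA1. These are 7 of 20098 annotated protein-coding genes. The set was chosen from measured peaks of these same lists, so the presence and strength of its peaks are given as a description, without a test. Every peak that overlapped a gene body or the 10 kb to either side was taken, and the neighbours NDRG1 and CCN4 were treated as 1 locus together with the gap between them. This gave 20 of 12171 peaks, which merge into 8 of 8280 regions. A498 cells, a human line from clear cell renal cell carcinoma, were profiled by CUT&RUN, in which an antibody directs a nuclease to cut out the DNA around a chromatin protein. The cells carried a lentiviral pLKO.1 construct, selected with puromycin, with either a control (scramble) shRNA, called shCNT and labelled WT in genotype, or an shRNA against BMAL1, called shBMAL1 and labelled as BMAL1 knockdown. The 20 libraries comprise 4 for BMAL1 and 4 for HIF2α under each shRNA, and 2 with control IgG under each, all from kidney-derived A498 cells with no further treatment in the labels. One peak list was analysed for each of the 4 groups with an antibody to BMAL1 or HIF2α, so no value below has replicate error.

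HIF2α is an oxygen-regulated transcription factor of the bHLH-PAS family that pairs with ARNT and binds the hypoxia response element (HRE). It escapes degradation when the VHL protein is lost, as is common in clear cell renal cell carcinoma. BMAL1, a related bHLH-PAS protein of the circadian clock, pairs with CLOCK and binds the E-box. The genes of the set other than CCN4, which neighbours NDRG1, act at several points of the response to low oxygen. NDRG1 encodes a stress-responsive cytoplasmic protein, and CCN4 (also known as WISP1) a secreted matricellular protein of the WNT pathway. DDIT4 (also known as REDD1) restrains mTORC1, CA9 is a cell surface carbonic anhydrase that regulates pH, and AK4 is a mitochondrial adenylate kinase. BNIP3 is a mitochondrial outer membrane protein that promotes mitophagy, and P4HA1 is a catalytic subunit of the prolyl hydroxylase that modifies collagen.

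The sequences that carry HRE cores at or next to the summits of DDIT4, AK4, P4HA1 and BNIP3 are shown here from GRCh37, with the promoter of CA9, which had no peak, for comparison. An HRE core was counted as ACGTG or GCGTG and an E-box as CACGTG, each on both strands, so that an E-box holds an HRE core on each strand. Capitals mark HRE cores on the strand shown or on its complement, and the one E-box is the run of 6 capitals in BNIP3. The DDIT4 sequence is the end of its promoter on the plus strand (chr10:74033547-74033677) and holds 2 cores. The AK4 sequence is intronic, on the plus strand (chr1:65614328-65614563), and holds 3 cores. The P4HA1 sequence is a stretch of 29 bases in the first exon on the minus strand (chr10:74856694-74856722) with 1 core. The BNIP3 sequence ends at the gene start on the minus strand (chr10:133795472-133795581) and holds 6 matches, 2 of them in the E-box. The CA9 sequence ends at the gene start on the plus strand (chr9:35673825-35673924) and holds 1 core.
DDIT4: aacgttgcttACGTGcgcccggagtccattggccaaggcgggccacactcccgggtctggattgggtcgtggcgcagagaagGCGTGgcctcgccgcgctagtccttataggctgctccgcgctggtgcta
AK4: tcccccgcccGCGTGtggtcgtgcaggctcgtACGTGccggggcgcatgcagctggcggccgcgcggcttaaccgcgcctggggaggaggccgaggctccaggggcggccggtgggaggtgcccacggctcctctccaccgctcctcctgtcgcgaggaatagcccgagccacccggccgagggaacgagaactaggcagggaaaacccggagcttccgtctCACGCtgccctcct
P4HA1: tgtgatcgagctCACGTagcgagggctgc
BNIP3: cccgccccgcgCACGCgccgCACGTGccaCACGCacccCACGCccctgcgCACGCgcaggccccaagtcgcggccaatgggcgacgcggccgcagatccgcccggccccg
CA9: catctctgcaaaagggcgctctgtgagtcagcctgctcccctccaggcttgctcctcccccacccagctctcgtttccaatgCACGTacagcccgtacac

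Each peak is described by values that the authors' caller wrote. The −log10 p of the summit ranks a peak within its list, and the percentile is the share of the list with a lower −log10 p. The pileup, the number of fragments covering the summit, was recovered as a whole number from the deposited fold and p for all peaks. The lists held 2361 (shCNT HIF2α), 3199 (shBMAL1 HIF2α), 2350 (shCNT BMAL1) and 4261 (shBMAL1 BMAL1) peaks. Their genome background, taken as the lowest background recovered for any peak of the list, was 0.209, 0.109, 0.168 and 0.0839. It is used below in place of depth, and this use was not checked against read counts. Median pileups were 8, 5, 6 and 5. The list labelled shBMAL1 BMAL1 was the longer BMAL1 list, against the direction of its label, and the shRNA labels are used below as names of lists. Whether a lower pileup means fewer occupied cells or less binding in each cell cannot be told apart in bulk CUT&RUN.

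Among the 7 genes, 5 had a HIF2α peak within 10 kb in the shCNT list, beside 11.4% of all protein-coding genes, and 4 had one in the shBMAL1 list, beside 13.6%. For BMAL1 the numbers were 3 of 7 in shCNT, beside 12.9%, and 4 of 7 in shBMAL1, beside 18.6%. NDRG1, CCN4 and DDIT4 had peaks of both antibodies under both shRNAs. P4HA1 had HIF2α peaks under both shRNAs and no BMAL1 peak. AK4 had a HIF2α peak in the shCNT list only, BNIP3 a BMAL1 peak in the shBMAL1 list only, and CA9 no peak in any list. The rule used these lists, so nothing is read from the distance of the counts to the genome-wide shares.

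**Figure D1:**
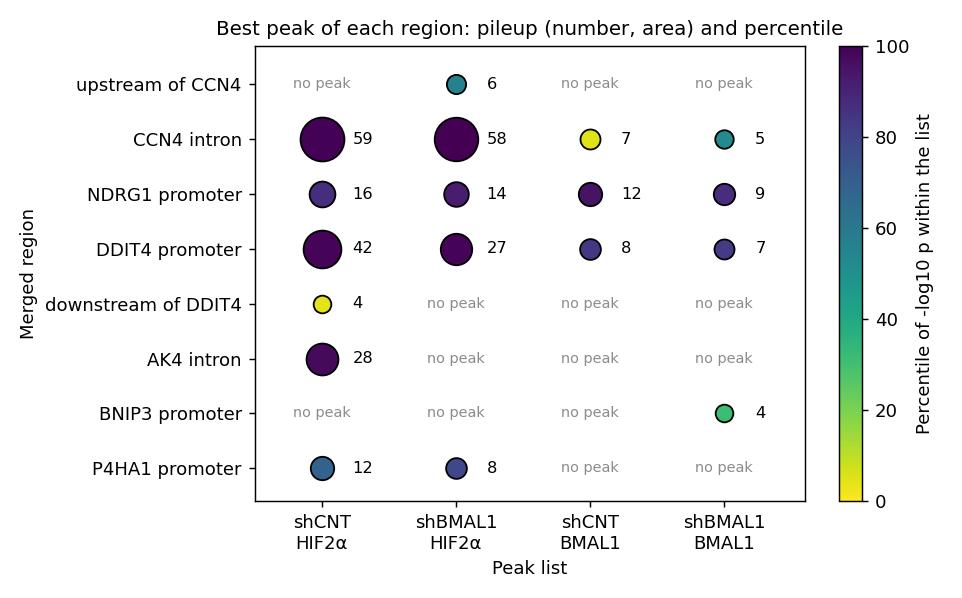
Pileup and percentile of the strongest peak in each of the 8 merged regions (rows) and 4 peak lists (columns). The number and the growing dot area give the pileup in fragments, and the colour gives the percentile of −log10 p within the list; the CCN4 intron (59 and 58) and the DDIT4 promoter (42 and 27) hold the highest HIF2α pileups, and 3 regions have a peak in every list.

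The peak with the highest pileup and −log10 p of the set lay inside CCN4 on chromosome 8. CCN4 (ENSG00000104415, chr8:134203282-134243933, plus strand) and NDRG1 (ENSG00000104419, chr8:134249418-134314265, minus strand) face each other with their 3′ ends. The HIF2α peak in the CCN4 intron spanned chr8:134228488-134229525 in shCNT and chr8:134228512-134230480 in shBMAL1. Its summits were 25591 and 25589 bp from the CCN4 start, 2 bp apart. The pileup was 59 fragments in shCNT and 58 in shBMAL1, over local backgrounds of 0.498 and 0.143. The deposited fold was 40.1 and 51.6. It ranked 9 of 2361 in shCNT (percentile 99.6) and 2 of 3199 in shBMAL1 (percentile 99.9). The same intron held fewer fragments in the BMAL1 lists. In shCNT the BMAL1 peak (chr8:134228914-134229298) had a pileup of 7 over a local background of 0.886, a rank of 2218 of 2350 and a percentile of 4.94 (54.6 when ranked by pileup). In shBMAL1 it (chr8:134228837-134229431) had a pileup of 5 over 0.110, and a percentile of 52.6 (39.8 when ranked by pileup). Its percentile was thus higher than in shCNT by p and lower by pileup. The shBMAL1 BMAL1 summit lay 50 bp from an HRE core, and from the same core the HIF2α summits lay 44 and 46 bp, while the shCNT BMAL1 summit lay at the end of its peak, 333 bp from the shBMAL1 BMAL1 summit, with no core within 100 bp.

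The peaks at NDRG1 sat at a transcript start within the annotated gene, 4436 bp inside its outer end, at chr8:134309829. HIF2α peaks spanned chr8:134309562-134310358 in shCNT and chr8:134309525-134310579 in shBMAL1, with summits 55 and 30 bp from the nearest NDRG1 start. BMAL1 peaks spanned chr8:134309568-134310363 in shCNT and chr8:134309701-134309889 in shBMAL1, with summits 7 and 0 bp from that start. The pileups were 16 (shCNT HIF2α), 14 (shBMAL1 HIF2α), 12 (shCNT BMAL1) and 9 (shBMAL1 BMAL1). In contrast to the CCN4 intron, the 2 antibodies gave pileups of like size here. Their percentiles were 86.8, 91.9, 95 and 87.4 in the same order. The NDRG1 start held 3 or 4 HRE cores within 100 bp of each summit, the nearest 1 to 26 bp away, and no E-box.

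Another region of this locus lay 8281 bp upstream of CCN4, between genes (chr8:134194903-134195100). It was found in the shBMAL1 HIF2α list alone, with a pileup of 6 over 0.179 and a percentile of 56.6. At the depth of the shCNT list, 6 fragments correspond to 11.5, above the 4 needed for a call at genome background. Of the shBMAL1 HIF2α peaks at least as strong, 69.5% overlapped a shCNT peak. Its 200 bp summit window, with a GC content of 45.5%, held no HRE core and no E-box but 1 AP-1 match (TGACTCA or TGAGTCA).

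**Figure D2:**
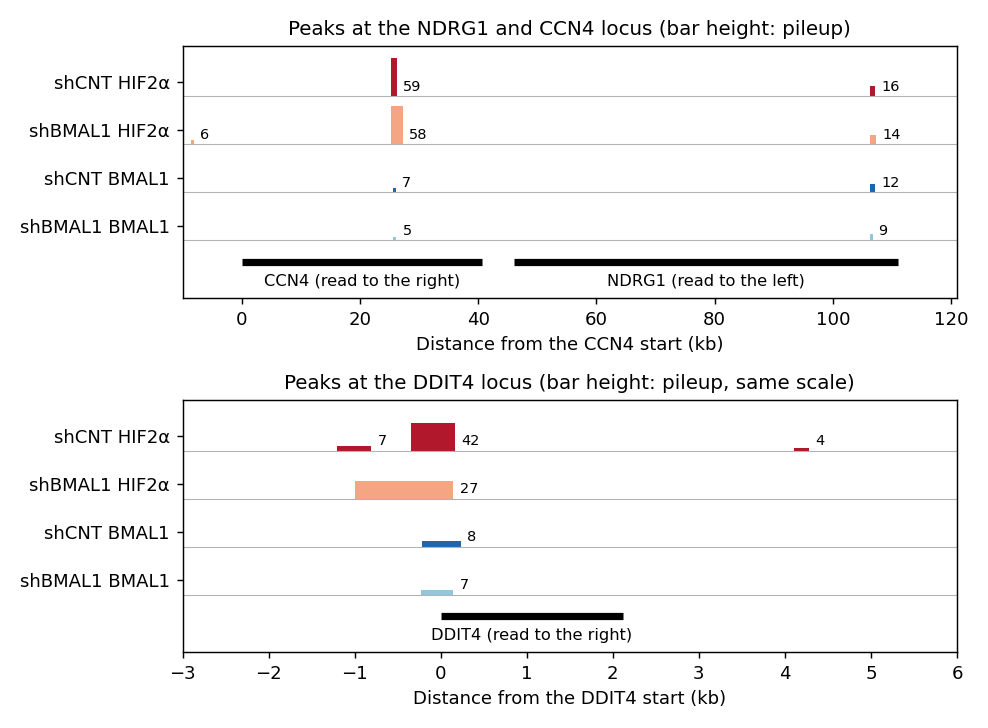
Peaks at the NDRG1 and CCN4 locus (top) and at DDIT4 (bottom) by distance from the gene start in kb, one row per list, with bar height and number giving the pileup in fragments and bar width the peak (narrow peaks widened to be visible). HIF2α pileups of 59 and 58 in the CCN4 intron stand above BMAL1 pileups of 7 and 5, whereas the NDRG1 start holds between 9 and 16 in every list.

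DDIT4 (ENSG00000168209, chr10:74033678-74035794, plus strand) had the second highest HIF2α pileup of the set, at its start. In shCNT the peak (chr10:74033327-74033846) had its summit 31 bp upstream of the start, in the sequence printed above, a pileup of 42 and a fold of 35.6. In shBMAL1 the peak (chr10:74032682-74033821) had its summit 42 bp upstream, a pileup of 27 and a fold of 25.2. They ranked 18 of 2361 and 24 of 3199, and both stood at percentile 99.2. BMAL1 peaks covered the start in shCNT (chr10:74033457-74033909) and in shBMAL1 (chr10:74033451-74033820), with pileups of 8 and 7. The BMAL1 summits were 53 and 27 bp downstream of the start, in the UTR, at percentiles 83.7 and 82.6. The BMAL1 pileups were close to those of 7 and 5 in the CCN4 intron, over local backgrounds of 0.168 and 0.0839 at DDIT4 and 0.886 and 0.110 in the intron.

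Around DDIT4 the shCNT HIF2α list held weaker peaks as well. One (chr10:74032475-74032873) had its summit 816 bp upstream, in an exon of the lncRNA ENSG00000289506, with a pileup of 7 and a percentile of 18.1. In shBMAL1 the peak at the start was 1140 bp wide and began inside this stretch, overlapping its summit. Another lay downstream of the gene (chr10:74037784-74037955), 4232 bp from the start, with a pileup of 4 and a percentile of 4.40, and was absent from the other lists. At the depth of the shBMAL1 list, 4 fragments correspond to 2.10, below the 3 needed for a call at genome background. Of the shCNT HIF2α peaks at least as strong, 57.2% overlapped a shBMAL1 peak. Neither weak peak had an HRE core within 100 bp of its summit.

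AK4 (ENSG00000162433, chr1:65613232-65697828, plus strand) had 1 strong HIF2α peak in shCNT and none in shBMAL1. The peak (chr1:65613809-65614618) covered an AK4 transcript start at chr1:65613886, and its summit lay 542 bp downstream of that start, in an intron. It had a pileup of 28 over a local background of 0.209, a fold of 24.0, and rank 62 of 2361 (percentile 97.3). At the depth of the shBMAL1 list, 28 fragments correspond to 14.7, above the 3 needed for a call at genome background. Of the 64 shCNT HIF2α peaks at least as strong, AK4 was the 1 without an overlapping shBMAL1 peak, and 98.4% had one. It was singled out after its values were seen. With 1 list per group, this difference has no replicate check. No BMAL1 peak was listed within 10 kb of AK4 under either shRNA. The summit window had a GC content of 74.0% and 2 HRE cores, the nearer 66 bp from the summit, and the whole peak held 5.

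P4HA1 (ENSG00000122884, chr10:74766975-74856732, minus strand) had HIF2α peaks of middle rank at its start. In shCNT there were 2, and the one at the start (chr10:74856588-74856943) had a pileup of 12 over 0.582 with its summit 33 bp from a start, at percentile 68.6. The other (chr10:74855386-74856017) lay in the intron 1116 bp from a start, with a pileup of 8 and a percentile of 62.7. In shBMAL1 a single peak of 1204 bp (chr10:74855938-74857141) overlapped both, with a pileup of 8 over 0.143, a summit 53 bp from a start and a percentile of 78.4. The core in the printed P4HA1 sequence lay 51 and 29 bp from the 2 summits at the start.

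BNIP3 (ENSG00000176171, chr10:133781188-133795471, minus strand) had no HIF2α peak and 1 weak BMAL1 peak, in shBMAL1. It (chr10:133795453-133795683) had a pileup of 4, a fold of 4.61 and rank 2383 of 4261 (percentile 31.4), with its summit 13 bp from a start. At the depth of the shCNT BMAL1 list, 4 fragments correspond to 8, and 4 are needed there for a call at genome background. Of the shBMAL1 BMAL1 peaks at least as strong, 32.4% overlapped a shCNT BMAL1 peak. Its summit window was the one in the set with an E-box, 74 bp from the summit, and had the highest GC content of the set (79.0%).

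CA9 (ENSG00000107159, chr9:35673925-35681156, plus strand) had no peak in the 27.2 kb window, although its promoter holds an HRE core 16 bp before the start. Such a core is common: 53.5% of the 20098 promoters hold one between 250 bp before and 50 bp after the start, and 8.33% hold an E-box. The nearest peaks fell just outside the window, both in shCNT HIF2α. One (chr9:35691945-35692084) was 789 bp beyond it, 1983 bp from the start of TPM2, with a pileup of 5. The other (chr9:35658900-35659730) was 4195 bp beyond it, 1378 bp from the start of CCDC107, with a pileup of 6. At DDIT4 a shCNT HIF2α peak with a pileup of 6 (chr10:74045912-74046161) missed the window by 118 bp. A site farther upstream of DDIT4 was listed in both HIF2α lists, 2630 bp beyond the window in shCNT (pileup 9) and 2680 bp in shBMAL1 (pileup 8). Of the peaks counted as members, the one closest to an edge was that upstream of CCN4, 1621 bp inside.

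Presence across the 2 shRNAs was counted peak by peak, with an overlap of at least 1 bp. Of the 8 member HIF2α peaks in shCNT, 6 overlapped a shBMAL1 HIF2α peak, beside 55.8% of the list, and 4 of 5 in shBMAL1 overlapped a shCNT peak, beside 41.2%. The 6 of 8 became 4 when the overlap had to cover 50% of the shorter peak or the summits to lie within 200 bp. For BMAL1, 3 of 3 shCNT peaks were overlapped in shBMAL1, beside 47.1%, and 3 of 4 shBMAL1 peaks in shCNT, beside 26.1%. Between antibodies, 3 of 8 HIF2α peaks overlapped a BMAL1 peak in shCNT, beside 24.9%, and 3 of 5 did in shBMAL1, beside 28.4%. In the other direction 3 of 3 shCNT BMAL1 peaks overlapped a HIF2α peak, beside 25.0%, and 3 of 4 shBMAL1 BMAL1 peaks, beside 21.2%. The CCN4 intron, the NDRG1 start and the DDIT4 start were the 3 of 8 regions found in every list, beside 2.90% of all 8280 regions. For the CCN4 intron this rests on the shCNT BMAL1 peak of rank 2218 of 2350. Its −log10 p of 5.37 would not pass a limit of 8. P4HA1 followed a pattern, HIF2α under both shRNAs without BMAL1, that 9.05% of all regions shared.

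To set the 2 shRNAs side by side at matched sites, each pileup was divided by the genome background of its list. The HIF2α ratio of shBMAL1 over shCNT was 1.88 at the CCN4 intron (95% interval 1.28 to 2.74), 1.67 at NDRG1 (0.755 to 3.65), 1.23 at DDIT4 (0.728 to 2.04) and 1.27 at P4HA1 (0.451 to 3.39). These are exact intervals for counting error only, and do not cover differences between libraries. The median over all 1318 matched HIF2α peaks was 1.53 (quartiles 1.19 and 1.91), and the interval of each of the 4 genes included it. Among the 116 matched peaks at or above the 95th shCNT HIF2α percentile the median was 1.23 (quartiles 1.10 and 1.43). The interval of the CCN4 intron lay above that median. Of the 116, 109 had a lower ratio than the CCN4 intron and 57 a lower one than DDIT4. Without the scaling every one of these ratios was below 1, at 0.983 for the CCN4 intron, 0.875 for NDRG1, 0.643 for DDIT4 and 0.667 for P4HA1, so the direction rests on the scaling. By deposited fold, which is set against local background, they were 1.29, 0.992, 0.710 and 0.958 in the same order. For BMAL1 the ratio was 1.43 at the CCN4 intron (0.357 to 5.23), 1.5 at NDRG1 (0.558 to 3.88) and 1.75 at DDIT4 (0.540 to 5.52), around a median of 2.00 over 1106 matched peaks. No interval of the BMAL1 ratios excluded 1, and unscaled they were 0.714, 0.75 and 0.875. Matched peaks had to be called in both lists, so the medians of 1.53 and 2.00 describe such peaks and are no neutral reference. The 116 strong peaks were picked by shCNT rank, and the shCNT pileup is the denominator of the ratio. Their median of 1.23 is therefore no neutral reference either. Without the scaling the median was below 1 for the matched HIF2α peaks and 1 for the matched BMAL1 peaks. Among matched peaks at or above the 95th shCNT BMAL1 percentile, the scaled BMAL1 median was below 2.00.

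**Figure D3:**
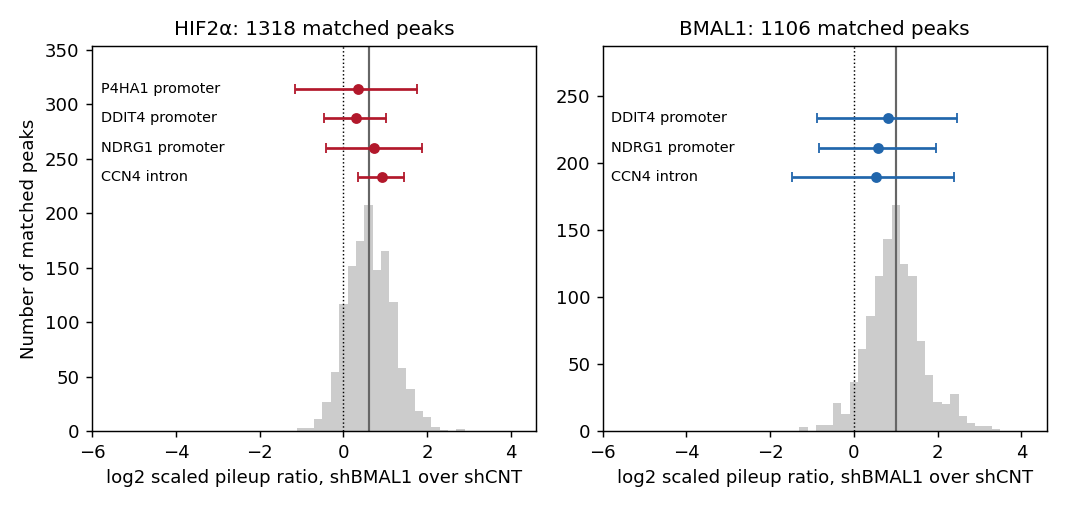
Log2 ratio of the scaled pileup, shBMAL1 over shCNT, for HIF2α (left) and BMAL1 (right). Grey bars count all matched peaks, which had to be called in both lists. The grey line is their median (1.53 and 2.00 on the linear scale), and the dotted line is no difference. Points with bars are the member regions with 95% counting intervals, each of which spans the median.

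The balance of the antibodies differed between regions. In shCNT the scaled BMAL1 pileup over that of HIF2α was 0.148 at the CCN4 intron (0.0569 to 0.324), 0.237 at DDIT4 (0.0962 to 0.512) and 0.934 at NDRG1 (0.403 to 2.10). The 2 summits compared at the CCN4 intron lay 327 bp apart in shCNT and 4 bp apart in shBMAL1, so the shCNT ratio sets different positions side by side. Over 589 matched peaks the median was 1.07, and 2 had a lower ratio than the CCN4 intron. The intervals of the CCN4 intron and DDIT4 lay below 1.07, and that of NDRG1 included it. In shBMAL1 the ratios were 0.112 (0.0352 to 0.278), 0.338 (0.124 to 0.796) and 0.839 (0.320 to 2.08), around a median of 1.3 over 910 matched peaks, and none of the 910 was lower than the CCN4 intron. Among the 38 shCNT matched peaks at or above the 95th HIF2α percentile the median was 0.245 (quartiles 0.216 and 0.316), with 2 below the CCN4 intron and 16 below DDIT4. Among the 59 such peaks in shBMAL1 the median was 0.311, with 35 below DDIT4. DDIT4 was thus placed near the middle of the strong HIF2α sites and the CCN4 intron at their lower end. A matched peak had to be called in both lists, and the smallest BMAL1 pileup was 4 in shCNT and 3 in shBMAL1. A ratio as low as that of the CCN4 intron therefore needs a high HIF2α pileup, here 59 and 58. Its place in this order is no separate sign of low BMAL1 signal.

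An HRE core lay within 100 bp of the summit in 5 of 8 member HIF2α peaks in shCNT, beside 66.0% of the list, and in 4 of 5 in shBMAL1, beside 59.3%. For BMAL1 the counts were 2 of 3 in shCNT, beside 48.0%, and 4 of 4 in shBMAL1, beside 38.4%. An E-box was found in 0 of 8 HIF2α windows in shCNT, beside 6.40%, in 0 of 5 in shBMAL1, beside 6.00%, and in 0 of 3 BMAL1 windows in shCNT, beside 11.1%. In shBMAL1 it was found in 1 of 4 BMAL1 windows (BNIP3), beside 4.32%. The windows without an HRE core were those upstream of CCN4, upstream and downstream of DDIT4, in the P4HA1 intron and under the shCNT BMAL1 summit in CCN4. These motif counts share sequence, since peaks of several lists fall on the same site. GC content ranged from 40% downstream of DDIT4 to 79.0% at BNIP3, and the CCN4 intron (42.0 to 44.5%) was low beside the promoters of NDRG1 (64.5 to 71.0%) and DDIT4.

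**Figure D4:**
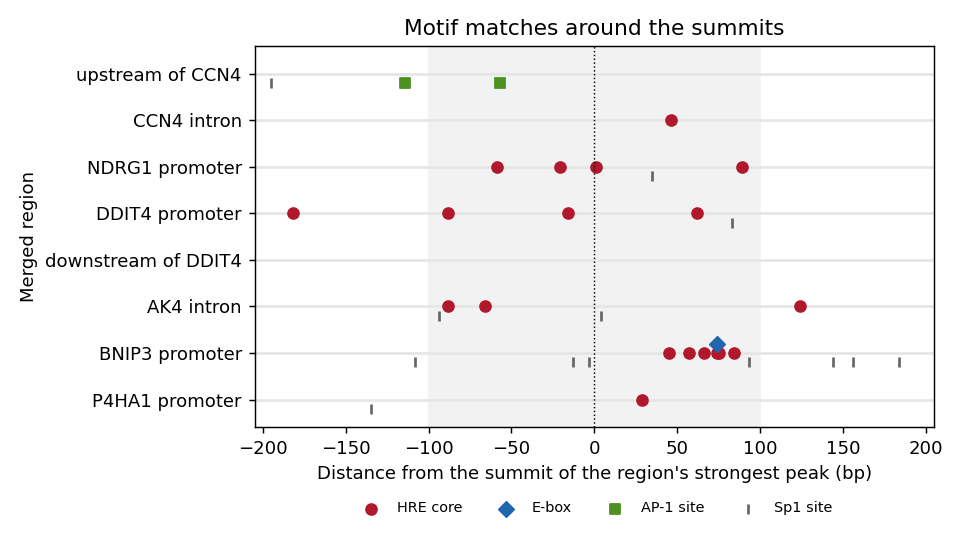
Motif matches by distance in bp from the summit of the strongest peak in each region, over 200 bp to either side, with the 200 bp counting window shaded. The CCN4 intron has a single HRE core 46 bp from the summit of its shBMAL1 HIF2α peak, NDRG1 and DDIT4 have several around theirs, the sites upstream of CCN4 and downstream of DDIT4 have none, and the E-box at BNIP3 coincides with 2 of its HRE matches.

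Summits lay within 1 kb of a start in 5 of 8 member HIF2α peaks in shCNT, beside 46.5% of the list, and in 3 of 5 in shBMAL1, beside 37.3%. For BMAL1 they did in 2 of 3 peaks in shCNT, beside 49.6%, and in 3 of 4 in shBMAL1, beside 38.8%. The exceptions were the CCN4 intron in each list, the site upstream of CCN4, the one downstream of DDIT4 and the intronic P4HA1 peak.

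A list of 38 related genes gave the surroundings of the pathway. A HIF2α peak within 10 kb was found for 10 of them in shCNT and 9 in shBMAL1, and a BMAL1 peak for 6 and 13. Over all protein-coding genes the shares given above were 11.4% and 13.6% for HIF2α and 12.9% and 18.6% for BMAL1, and the counts in the groups below, of 8 genes or fewer, are read as no more than counts. Collagen-modifying enzymes related to P4HA1 had HIF2α peaks in 4 of 7 cases in shCNT and 3 in shBMAL1. They were PLOD2, a lysyl hydroxylase (pileups 26 and 15), P4HA2, a paralogue of P4HA1 (36 and 29, nearest start PDLIM4), LOXL2, a lysyl oxidase (27 and 30, nearest start LOXL2-AS1), and P4HB, the other prolyl hydroxylase subunit, in shCNT alone (12). Among carbonic anhydrase and pH genes 3 of 6 had one under both shRNAs. These were CA12, a membrane carbonic anhydrase like CA9 (26 and 22), the lactate transporter SLC16A3 (20 and 12), and CA13, where the nearest start was that of RBIS. For mitochondrial genes the count was 2 of 6 under both shRNAs, with BNIP3L, a paralogue of BNIP3 (15 and 13), and PDK1, which restrains pyruvate dehydrogenase (25 and 13). The BNIP3L summits lay 9244 and 10770 bp from the nearest start, that of ENSG00000254362. By p, the PDK1 peak stood at percentile 93.3 in shCNT and 38.3 in shBMAL1. Its shBMAL1 pileup of 13 equalled that of BNIP3L, which stood at percentile 92.7 in that list. Of 8 further NDRG and CCN genes and 7 mTORC1 and stress genes none had a HIF2α peak, while BMAL1 peaks were listed at 0 and 1 of them in shCNT and at 3 and 2 in shBMAL1.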

How the data were processed

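CUT&RUN libraries of A498 cells were assigned to groups from their titles, which name the shRNA and the antibody. The authors aligned reads to hg19 (GRCh37) with Bowtie2 2.5.3, and filtered them and removed duplicates with SAMtools 1.6 and sambamba. They called peaks with MACS2 2.2.9.1 at a −log10 p of at least 5, joining sites up to 400 bp apart. The hg19 blacklist was taken out with bedtools 2.31.1. Whether replicates were pooled, and which control was used, is not given in the sources used here for these lists. IgG libraries and files of single replicates were not analysed here. The deposited fold is a linear ratio of summit pileup to local background, the p-value and the q-value were deposited on a −log10 scale, and the deposited score is 10 times the −log10 p as a whole number.

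The genes and gene lists were chosen with earlier results of these data known. Named were the 7 genes with every peak in their windows, related genes with HIF2α peaks in both lists (1 is not reported here), and the 5 other genes with the most HIF2α peaks. P4HB and AK4's standing among strong peaks were named after their values were seen. Pileup and background were solved from fold, (pileup + 1) / (background + 1), and the Poisson p, within 0.00100 of log10 p, and tested on simulated data. Regions were unions of overlapping peaks. Starts came from basic transcripts of GENCODE release 44 on GRCh37, and motifs were read in 200 bp around summits. Ratios carry exact conditional 95% intervals for counting error only, and any PCR copies left after the removal of duplicates are not independent. The authors scaled their signal tracks by a yeast spike-in, which was not used for the ratios here. Alternatives were other windows, thresholds, overlaps, rankings and scalings. Python 3.11.15, numpy 2.4.6 and scipy 1.17.1 were used.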

Additional observations from a re-analysis of the deposited data

How the results depend on the processing

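No result here was set against replicate error, since 1 list was analysed for each group, and leaving out a replicate was not run. No paired analysis was possible because the lists used here carry no values of single replicates. The HIF2α ratio of shBMAL1 over shCNT at the CCN4 intron fell from 1.88 to 0.983 without scaling. It was 1.29 by deposited fold and 1.23 when scaled by the median of matched peaks. At DDIT4 the ratio was 0.643 without scaling and 0.710 by deposited fold, in place of 1.23. Unscaled ratios were also below 1 at NDRG1 (0.875) and P4HA1 (0.667) and for BMAL1 at the 3 shared regions (0.714 to 0.875), and scaling by the median gave 0.804 at DDIT4 and 0.833 at P4HA1. In windows of 100 bp, 3 of 8 shCNT HIF2α peaks held an HRE core (5 in the wider window) and 0 of 4 shBMAL1 BMAL1 peaks an E-box (1). Ranked by pileup, the median percentile of the best peak per locus was 97.6 for shCNT HIF2α (98.2 by p), 98.8 for shBMAL1 HIF2α (99.2), 82.3 for shCNT BMAL1 (89.4) and 72.2 for shBMAL1 BMAL1 (82.6, or 81.3 by fold). These medians cover only the loci with a peak, which were 4, 3, 2 and 3 of 6 in the same order. Of the 38 related genes, 13 had a shCNT BMAL1 peak within 50 kb and 3 at a −log10 p of at least 8, in place of 6. For shBMAL1 BMAL1 these were 21 and 8, and 8 with lists of equal length, in place of 13. The cause of these shifts was not tested, beyond the windows, limits and scalings themselves. The 6 of 8 shCNT HIF2α peaks overlapped in shBMAL1 became 4 with an overlap of 50% or with summits within 200 bp, and the shCNT BMAL1 peaks went from 3 to 2 with the latter. The other counts moved by at most 1.5 times. Pileups of 4 to 8 fragments limit the weak sites: a site of 4 fragments in shCNT HIF2α corresponds to 2.10 in shBMAL1.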

Other observations

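By number of HIF2α peaks within 10 kb of a gene body, summed over both lists, the genes outside the set that ranked first were FBXO16 (8 in shCNT and 9 in shBMAL1), ZNF395 (7 and 8), SEMA4B (5 and 8), EGLN3 (5 and 8) and AP3D1 (6 and 7). EGLN3 encodes an oxygen-sensing prolyl hydroxylase. FBXO16 and ZNF395 are not independent entries, since all 7 and 8 peaks counted for ZNF395 were also counted for FBXO16. The NDRG1 and CCN4 locus held 2 and 3. The windows of these genes differ in length, from 77.1 kb for ZNF395 to 559 kb for EGLN3, and longer windows can hold more peaks.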
